A study of Homo sapiens with 4 samples.

Results

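BCL2A1, CFLAR and BIK are a small set of genes that act on cell survival, followed here in a lymphoma line in which the kinase IKKa was knocked down with and without an inhibitor of the kinase IKKb. BCL2A1 and CFLAR restrain cell death and are textbook targets of NF-kB, and BIK promotes it. All probes that the platform annotation assigned to these symbols were taken, which gave 9 of the 15246 probes: 5 for BCL2A1, 2 for CFLAR and 2 for BIK. The 3 genes were chosen by their mean log2 ratios and by the differences between the arrays with and without inhibitor, as known from an earlier look at the same arrays. Their values are therefore a description, and the directions in which they moved cannot support the choice.

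The samples were 4 two-colour arrays of the human cell line OCI-Ly3, which was grown from a diffuse large B-cell lymphoma and belongs to the activated B-cell class, known to depend on constant NF-kB activity. On every array cDNA of cells given doxycycline at 20 ng/ml, taken from the design text to turn on a short hairpin RNA against IKKa, carried Cy5, and cDNA of cells without doxycycline carried Cy3. On 2 arrays both channels also had MLN120b, an IKKb inhibitor, at 12.5 uM: 1 with doxycycline for 2 days and then 3 h of inhibitor beside it, 1 with doxycycline for 3 days, the last 24 h of them in inhibitor. On the other 2 arrays neither channel had inhibitor, with doxycycline for 2 days or for 3 days. Each value is thus a log2 ratio of hairpin-induced over uninduced cells at 1 inhibitor status. The effect of MLN120b itself is in both channels and is not measured. The uninduced cells of the inhibitor-free arrays are labelled untreated, and whether they carried the silent hairpin is not said. No array had a hairpin without a target or swapped dyes, so the hairpin, doxycycline as such and a dye bias of a probe cannot be told apart within an array. In the difference between arrays a dye bias that stays the same drops out. A lower ratio can come from fewer cells that express a gene or from less RNA per cell, and these cannot be told apart.

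NF-kB is held inactive by inhibitor proteins until the IkB kinase complex, with IKKa and IKKb as its catalytic subunits, marks those proteins for destruction. Freed NF-kB turns on genes that keep B cells alive. BCL2A1 encodes a member of the BCL2 family that binds and holds back proteins that permeabilise mitochondria. CFLAR encodes c-FLIP, a relative of caspase-8 without protease activity of its own that enters the complex formed by death receptors and limits caspase-8 activation there. BIK encodes a BH3-only protein, the class that binds the anti-apoptotic family members and so frees the effectors of mitochondrial death. The study's title asks whether IKKa keeps classical NF-kB signalling active while IKKb is inhibited, and the comparison of the arrays with and without inhibitor addresses it.

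The direction of the deposited ratio is not stated, and induced over uninduced cells is taken as likely, from the usual order of the dyes and from CHUK, the gene of IKKa, which then averaged -1.15 with inhibitor and -0.73 without it. If it ran the opposite way, each value called higher would be lower and the reverse. All 9 probes had a value on all 4 arrays. At each day the array with inhibitor was the wider one: the median absolute deviation over the 3589 genes measured on every array was 0.17 at 3 h and 0.26 at 24 h of inhibitor, and 0.11 at 2 days and 0.18 at 3 days without inhibitor. Signal over background is unknown, and precision is limited by how few arrays there are. The 2 arrays of a group are different times, so an SD over them includes any change with time, and nothing in the labels says that they came from separate cultures.

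The bases before the start of BCL2A1 and of CFLAR, the 2 genes lower with inhibitor, are shown to set their promoters beside each other, as RefSeq gives them on GRCh38.p14. BCL2A1 had 1 start in the RefSeq promoter table and CFLAR had 4, of which the one holding a kappaB match is printed, with 250 bases before the start. The kappaB consensus, the DNA motif of NF-kB, was searched by name in 2 forms on both strands, and so was TATAAA. Capitals mark a match to the kappaB consensus in CFLAR and to TATAAA in BCL2A1.
BCL2A1, chr15:79971197-79971446, - strand: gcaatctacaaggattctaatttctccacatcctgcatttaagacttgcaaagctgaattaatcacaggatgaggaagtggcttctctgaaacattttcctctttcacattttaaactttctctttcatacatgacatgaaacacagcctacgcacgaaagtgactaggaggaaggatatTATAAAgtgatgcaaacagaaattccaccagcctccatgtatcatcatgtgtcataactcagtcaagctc
CFLAR, chr2:201118466-201118715, + strand: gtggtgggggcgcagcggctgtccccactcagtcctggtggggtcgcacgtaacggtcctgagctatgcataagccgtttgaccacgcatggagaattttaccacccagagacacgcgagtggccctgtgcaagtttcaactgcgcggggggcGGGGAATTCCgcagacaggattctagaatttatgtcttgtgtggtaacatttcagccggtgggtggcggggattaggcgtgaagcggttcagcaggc
The less strict kappaB consensus matched once in these CFLAR bases, as GGGGAATTCC from -97 to -88 relative to the start, and in none of the other 3 CFLAR windows. It was not found in the BCL2A1 window. Of 35116 RefSeq promoter windows of the same length, 9.96% held this form, and 6.88% held the strict form, which neither gene had. These shares are per window, and CFLAR had 4 windows in which a match could fall. TATAAA stood from -70 to -65 in BCL2A1, and 10.7% of windows held it. The BCL2A1 window was 38.8% G and C, the printed CFLAR window 58.8%, and the median over all windows 58%. The windows are short, a match is a description of letters only, and no binding was measured.

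BCL2A1 was slightly lower in induced cells with inhibitor and higher in induced cells without it. Averaged over its 5 probes, the log2 ratio was -0.03 at 3 h and -0.28 at 24 h of inhibitor, and 0.26 at 2 days and 0.16 at 3 days without inhibitor. Both arrays with inhibitor lay below 0 and below both arrays without it. The group means were -0.16 ± 0.18 with inhibitor and 0.21 ± 0.07 without it (SD, n = 2 arrays each), which is 1.11-fold lower and 1.16-fold higher in induced than in uninduced cells. The mean with inhibitor rested mostly on the 24 h array, without which it was -0.03.

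The BCL2A1 probes did not all move alike. Probe 1 had -0.12 at 3 h and -0.41 at 24 h of inhibitor, against 0.53 at 2 days and 0.08 at 3 days without inhibitor. Probe 2 had -0.09 and -0.48 with inhibitor, against 0.25 and 0.14 without it. Probe 5 had -0.01 and -0.38 with inhibitor, against 0.19 and 0.36 without it. In these 3 probes both inhibitor arrays were below 0 and both other arrays above it, a pattern not counted over all probes. Probe 3 had -0.22 at 3 h but 0.18 at 24 h of inhibitor, against 0.17 at 2 days and 0.07 at 3 days without inhibitor. Probe 4 had 0.29 at 3 h and -0.33 at 24 h, against 0.16 and 0.14. So each array with inhibitor had 4 of 5 probes below 0, with a different probe as the exception, while all 5 probes were above 0 on each array without inhibitor. The SD between the probes was 0.19 and 0.27 on the arrays with inhibitor, and 0.15 and 0.12 on those without.

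CFLAR had the lowest ratios of the 3 genes. Its mean over 2 probes was -0.46 at 3 h and -0.74 at 24 h of inhibitor, and 0.06 at 2 days and -0.26 at 3 days without inhibitor. Induced cells were lower on both arrays with inhibitor, and without inhibitor they were lower on the 3-day array and near equal to uninduced cells on the 2-day array. The group means were -0.60 ± 0.20 with inhibitor and -0.10 ± 0.23 without it (SD, n = 2 arrays each), a 1.51-fold and a 1.07-fold lower ratio. The mean without inhibitor was 0.06 without the 3-day array, so its sign rested on that array.

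Both CFLAR probes gave the same order of arrays. Probe 1 had -0.51 at 3 h and -0.95 at 24 h of inhibitor, against 0.10 at 2 days and -0.39 at 3 days without inhibitor. Probe 2 had -0.41 and -0.54 with inhibitor, against 0.03 and -0.14 without it. In each probe both arrays with inhibitor were below both arrays without it, and the values of probe 1 covered the wider range.

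BIK lay on the other side of 0, with induced cells higher on every array. Its mean over 2 probes was 0.56 at 3 h and 0.68 at 24 h of inhibitor, and 0.19 at 2 days and 0.36 at 3 days without inhibitor. Both arrays with inhibitor were above both arrays without it. The group means were 0.62 ± 0.09 with inhibitor and 0.28 ± 0.12 without it (SD, n = 2 arrays each), a 1.54-fold and a 1.21-fold higher ratio. Markers of T cells, another lymphocyte that a B cell line should lack, had group means on the same side. The means were above 0 in 6 of 6 measured with inhibitor (median 0.20) and 5 of 6 without it (median 0.09). This compares with 48.4% and 44.1% of all genes, and none was called. LCK was below 0 at 3 h (-0.26) and above it at 24 h (0.34) of inhibitor, while the other markers were above 0 on both. Log ratios hold no levels, so whether these markers were expressed is not known, and their part in the BIK values was not tested.

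The 2 BIK probes agreed in sign but not in size. Probe 1 had 0.83 at 3 h and 0.85 at 24 h of inhibitor, against 0.28 at 2 days and 0.34 at 3 days without inhibitor. Probe 2 had 0.29 and 0.51 with inhibitor, against 0.10 and 0.38 without it. The arrays with and without inhibitor were apart in probe 1 and overlapped in probe 2, where the 3 h array lay below the 3-day array without inhibitor.

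**Figure D1:**
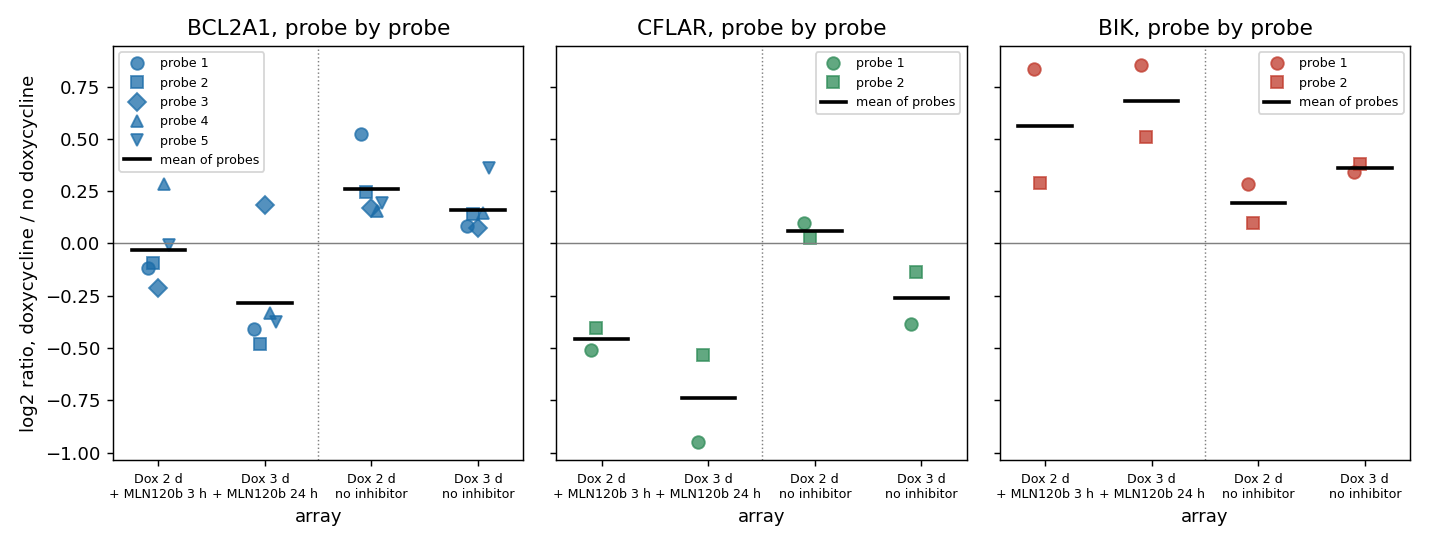
Log2 ratio of doxycycline-treated over uninduced cells (vertical axis) on each of the 4 arrays (horizontal axis) for every probe of BCL2A1, CFLAR and BIK. Symbols are single probes and black bars the mean of a gene's probes. Both CFLAR probes lie below 0 on both arrays with MLN120b, both BIK probes lie above 0 on all 4 arrays, and 4 of 5 BCL2A1 probes lie below 0 on each array with MLN120b.

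The order of the arrays was compared with the spread between the probes of each gene. Probes of a gene read the same RNA, so they do not show whether the order would repeat on other arrays or cultures. In BCL2A1 the ratio was highest at 2 days without inhibitor, followed by 3 days without, 3 h and 24 h of inhibitor. Its neighbours in this order differed by 0.10, 0.19 and 0.25, each less than the larger SD between probes of that pair of arrays. Their probe ranges overlapped, and 4 of 5 probes had the same order at each step. In CFLAR the order was the same, with steps of 0.32, 0.20 and 0.28 and no overlap of its 2 probes between neighbours, although the last step was smaller than the SD of 0.29 between probes at 24 h. In BIK the ratio was highest at 24 h of inhibitor, followed by 3 h of inhibitor, 3 days and 2 days without inhibitor. The steps were 0.12, 0.20 and 0.17, and the first and second were smaller than the SD of 0.38 between the probes at 3 h, where their ranges overlapped.

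Matched by day of doxycycline, the arrays with inhibitor minus those without gave the same sign at both days, with similar sizes in CFLAR and BIK. CFLAR differed by -0.48 at 3 days and -0.52 at 2 days, with both probes lower on each day. BCL2A1 differed by -0.44 at 3 days and -0.29 at 2 days, with 4 of 5 probes lower on each day. The exception was probe 3 at 3 days (0.11) and probe 4 at 2 days (0.13). BIK differed by 0.32 at 3 days and 0.37 at 2 days, with both probes higher on each day. The inhibitor was present for 24 h in the first and for 3 h in the second of these pairs, so day and length of inhibitor cannot be told apart. Over both days the difference was -0.50 for CFLAR (SE 0.19), -0.37 for BCL2A1 (SE 0.17) and 0.34 for BIK (SE 0.16) in the limma fit over all genes. That fit did not match arrays by day, so these SEs reflect the spread between days within a group and not that of the matched differences. After arrays were scaled to equal spread the BIK difference was 0.21. Without the 24 h array the BCL2A1 difference was -0.24.

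Against all genes, the 3 stood at different places on each array. BIK was exceeded by 1.70% of the 3589 genes at 3 h and 5.96% at 24 h of inhibitor, and by 9.64% at 2 days and 4.90% at 3 days without inhibitor. CFLAR had 5.93% of genes below it at 3 h and 4.99% at 24 h of inhibitor, and 67.1% at 2 days and 23.4% at 3 days without inhibitor. BCL2A1 lay near the middle at 3 h of inhibitor, with 47.8% of genes below it, and had 24.5% below it at 24 h, while without inhibitor it had 95.2% below it at 2 days and 81.2% at 3 days. In the difference with inhibitor minus without, 42 genes were lower than CFLAR, 116 lower than BCL2A1 and 273 higher than BIK.

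**Figure D2:**
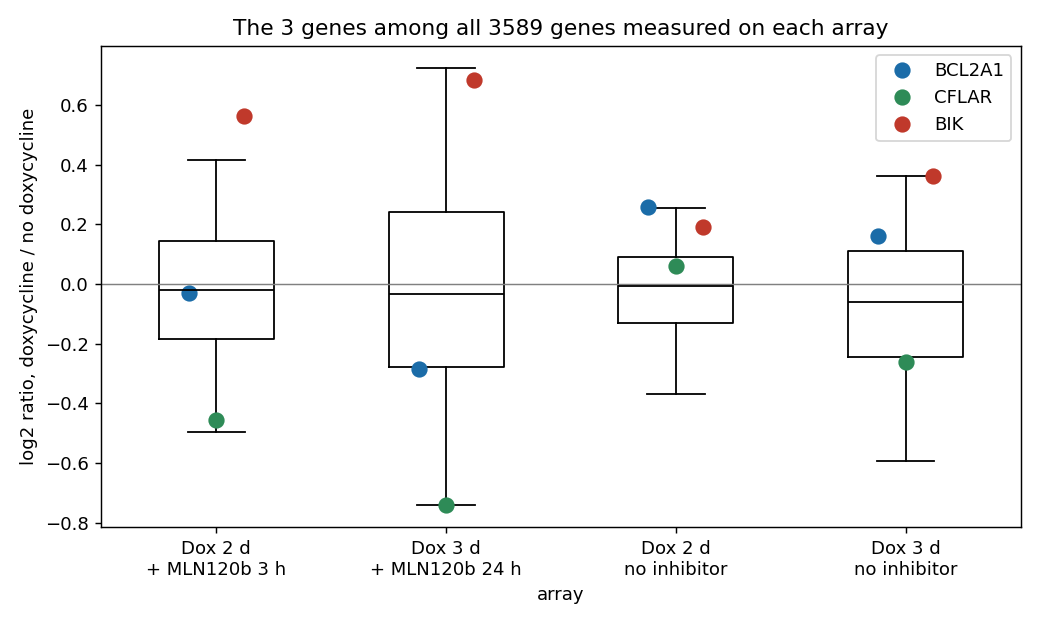
Log2 ratio of doxycycline-treated over uninduced cells (vertical axis) on each array (horizontal axis); boxes span the quartiles of all 3589 genes with the median as a line, whiskers run between the percentiles 5 and 95, and dots are the means over probes of the 3 genes. BIK is at or beyond the upper whisker at 3 h of MLN120b and at 3 days without it, and CFLAR is at the lower whisker at 24 h.

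Counts over all genes put these places in context, and nothing is read from them for genes chosen with these values known. CFLAR and BCL2A1 had both arrays with inhibitor below both arrays without it, as had 11.2% of all genes. BIK had both above, as had 19.4%. BIK was above 0 on all 4 arrays, as were 15.5% of genes, and CFLAR and BCL2A1 were below 0 on both arrays with inhibitor, as were 38.9%. BCL2A1 was in addition above 0 on both arrays without inhibitor, a pattern shared by 1.53% of genes. With inhibitor, limma called 164 genes at a Benjamini-Hochberg adjusted p under 0.05, 4.57% of those tested, and BIK was among them while CFLAR and BCL2A1 were not. Leaving out 1 array ended the BIK call in 3 of 4 cases, with a limma adjusted p of 0.0795 when either inhibitor-free array was dropped and 0.0825 when the 24 h array was, against 0.0359 with all arrays. CFLAR stood at 0.0532 with all arrays, was called at 0.0017 without the 3 h array and at 0.0123 with the doxycycline day as a block, and stood at 0.206 without the 24 h array. Without inhibitor limma called 0% of genes (0 of 3589, 400 at an unadjusted p under 0.05), and for the difference 0% (0 of 3589, 173 at an unadjusted p under 0.05).

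The ratios of BIK and the survival genes were further apart on the arrays with inhibitor than on those without. The 3 genes were chosen by these differences, so a wider gap with inhibitor was set by the choice and is no finding. Ratios over all genes were also more spread with inhibitor. Their median absolute deviation was 0.17 at 3 h and 0.26 at 24 h of inhibitor, against 0.11 at 2 days and 0.18 at 3 days without it. The BIK log2 ratio minus that of CFLAR was 1.02 at 3 h and 1.42 at 24 h of inhibitor, against 0.13 at 2 days and 0.62 at 3 days without inhibitor. BIK minus BCL2A1 was 0.59 and 0.96 with inhibitor, against -0.07 and 0.20 without it. As ratios of the induced over uninduced changes, BIK over CFLAR reached 2.68-fold and BIK over BCL2A1 1.95-fold at 24 h of inhibitor. These show unequal change between genes and not their levels, which log ratios do not hold.

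**Figure D3:**
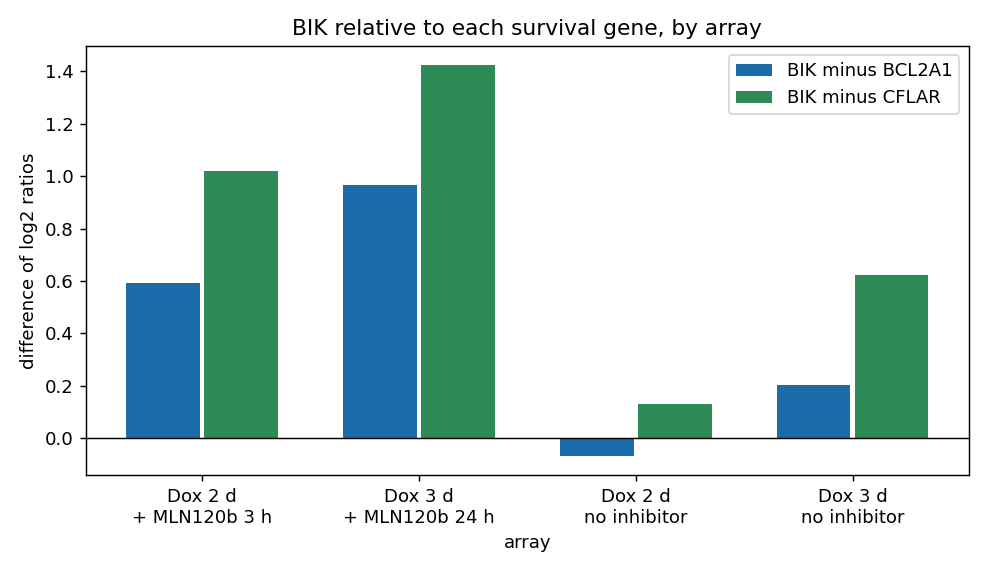
Difference of log2 ratios between BIK and BCL2A1 (blue) and between BIK and CFLAR (green), vertical axis, on each of the 4 arrays, horizontal axis, with bars drawn from 0. Both differences are larger on the 2 arrays with MLN120b (0.59 to 1.42) than on the 2 without it (-0.07 to 0.62). The genes were chosen with these values known.

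Few other measured genes of cell death passed the test. The lists of cell death and survival genes held 60 genes, of which 47 had a probe and 40 a value on all arrays, 37 of them besides BCL2A1, CFLAR and BIK. With inhibitor 2 of these 37 were called lower and none higher, 5.41% against 4.57% of all genes, and none was called without inhibitor or in the difference. Their median was 0.01 with inhibitor and -0.01 without it, beside -0.01 and -0.03 over all genes. In 7 of the 37 both arrays with inhibitor lay below both arrays without it, and in 8 above, 18.9% and 21.6% against 11.2% and 19.4% of all genes. Both called genes, TNFAIP3 and PIM2, are among the 7. The lists were chosen with earlier results of these data known, so these shares are a description.

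Among the anti-apoptotic relatives of BCL2A1, BCL2 averaged -0.13 with inhibitor, beside -0.16 for BCL2A1, and -0.10 without it. BCL2 had -0.27 at 3 h and 0.002 at 24 h of inhibitor, where BCL2A1 had -0.03 and -0.28. MCL1 averaged -0.06 with inhibitor (0.03 at 3 h and -0.16 at 24 h) and -0.04 without it. BCL2L1, the gene of BCL-XL, averaged -0.02 with and -0.06 without inhibitor. None of the 4 measured members was called. The effectors of mitochondrial pore formation were likewise not called: BOK averaged 0.28 with and 0.25 without inhibitor, and BAK1 -0.13 and -0.03.

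BH3-only genes had means above 0 with inhibitor in 6 of 6 measured members and without inhibitor in 4 of 6, with medians of 0.18 and 0.14, where 48.4% and 44.1% of all genes had means above 0. These counts include BIK, which was chosen with its values known. Single arrays with inhibitor were below 0 in BMF (-0.004 at 24 h), PMAIP1 (-0.06 at 24 h) and HRK (-0.15 at 3 h). BAD and BBC3 were above 0 on both. BIK was the 1 member called, beside 4.57% of all genes. BBC3, which encodes PUMA, had 0.37 at 3 h and 1.00 at 24 h of inhibitor, against -0.01 at 2 days and 0.47 at 3 days without inhibitor. Its mean with inhibitor, 0.68, was above that of BIK but its arrays lay further apart, overlapped between the groups, and rested on 1 probe (limma adjusted p = 0.075). In the BNIP family, BNIP1 averaged -0.30 with and -0.26 without inhibitor and BNIP3L -0.28 and -0.30, and none of 4 was called.

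CASP8, whose product is the caspase that c-FLIP restrains, lay on the other side of 0 from CFLAR with inhibitor. It had 0.42 at 3 h and 0.55 at 24 h of inhibitor, against 0.10 at 2 days and 0.22 at 3 days without inhibitor. All 4 values were above 0, as in 15.5% of all genes, and both inhibitor arrays were above both others, as in 19.4%. The values are means over 2 of its 3 probes (limma adjusted p with inhibitor 0.0564, not called). CASP10, a close relative of caspase-8, averaged 0.17 with and 0.06 without inhibitor, and FADD, the adaptor that recruits them, 0.06 and 0.14. Of the death receptor genes none of 6 was called. TNFRSF10D, a decoy receptor for the ligand TRAIL, averaged 0.44 with and 0.01 without inhibitor, and FAS -0.32 and -0.16.

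The inhibitor of apoptosis, apoptosome and caspase lists gave no call either. BIRC5, survivin, a member of the inhibitor of apoptosis family also needed for mitosis, averaged -0.71 with and -0.43 without inhibitor on 1 probe, and NAIP of the same family 0.34 and 0.37. CYCS, the gene of cytochrome c, which triggers the apoptosome, averaged -0.61 and -0.31. CASP2 had -0.43 at 3 h and 1.40 at 24 h of inhibitor, so its mean of 0.49 rested on 1 array, while without inhibitor it had 0.04 at 2 days and 0.13 at 3 days. The list of other NF-kB-induced survival genes was chosen with earlier results of these data known. Of its 4 measured genes, 2 were called lower in induced cells on the arrays with inhibitor, as were 109 of all 3589 genes. TRAF1 and SOD2 were not called. TRAF1 averaged -0.33 with and -0.28 without inhibitor, and SOD2 0.06 and 0.15. The 2 called genes also had means below 0 without inhibitor, and neither was called for the difference between the groups (limma adjusted p = 0.989 each). TNFAIP3, the gene of A20, which also protects from death signalled by TNF receptors, averaged -0.88 ± 0.35 with and -0.33 ± 0.16 without inhibitor (SD, n = 2 arrays each, limma adjusted p with inhibitor 0.0304). PIM2, a survival kinase, averaged -0.56 ± 0.00495 with and -0.16 ± 0.15 without inhibitor (SD, n = 2 arrays each, limma adjusted p with inhibitor 0.0456). Both calls ended when either inhibitor-free array was dropped, at limma adjusted p-values of 0.0635 for TNFAIP3 and 0.0926 for PIM2. The PIM2 call also ended without the 24 h array (0.0895), when arrays were scaled to equal spread (0.0697) and under the looser filter on missing values (0.0549).

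**Figure D4:**
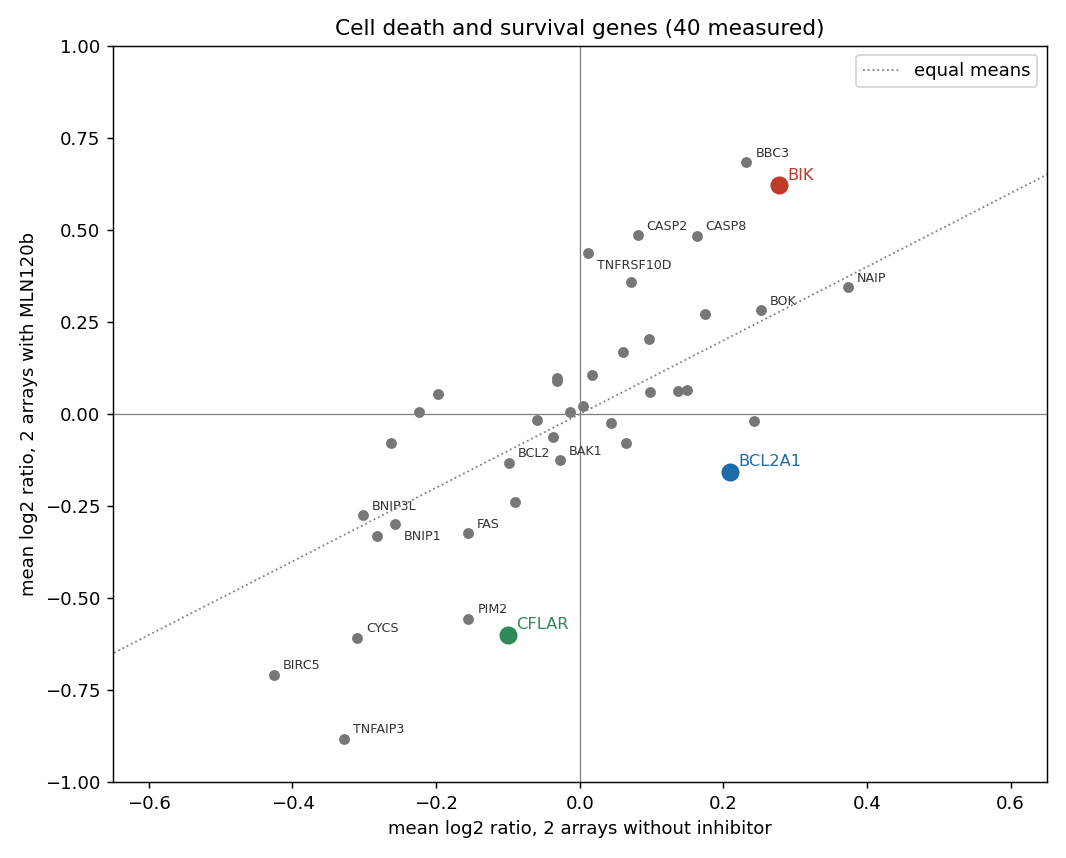
Mean log2 ratio on the 2 arrays with MLN120b (vertical axis) against that on the 2 arrays without inhibitor (horizontal axis) for the 40 measured cell death and survival genes; each dot is a gene and the dotted line marks equal means. BCL2A1 and CFLAR lie below the line and BIK above it, while BCL2 and BAK1 lie near the origin.

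The genes whose ratios were most like each of the 3 were taken by the smallest Euclidean distance over the 4 arrays. For BCL2A1 they were MDN1, at a distance of 0.12, PWP2 at 0.15 and RCC1 at 0.16, where the median distance to all genes was 0.64. For CFLAR they were NUPR1 at 0.17, INSIG1 at 0.18 and RBPMS at 0.19, with a median distance of 0.94. For BIK they were MTMR14 at 0.13, MSRB2 at 0.14 and CDR2 at 0.17, with a median distance of 1.05. NUPR1, the nearest to CFLAR, had -0.45 and -0.73 at 3 h and 24 h of inhibitor, against -0.02 and -0.41 at 2 and 3 days without inhibitor. MTMR14, the nearest to BIK, had 0.56 and 0.72 with inhibitor, against 0.08 and 0.41 without it. These neighbours were drawn from 3589 genes on only 4 arrays, and their likeness is a description.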

How the data were processed

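RNA of OCI-Ly3 cells was measured on 4 two-colour arrays. The authors deposited a log ratio for each probe on each array, taken here as log2 because a log10 base would give implausible ranges. Dyes are per the labels. How background, normalization and weak spots were handled is not given in the sources. The array medians lie between -0.007 and 0.

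Of 15246 probes, 10169 had 1 gene symbol, 4 several and 5073 none; 10128 of the first matched RefSeq by gene identifier and 41 kept the listed symbol. Probes with a value on all 4 arrays were averaged per gene (3589 genes). One limma 3.58.1 model (R 4.3.3) with a mean for each group of 2 arrays was fitted to all genes (2 residual degrees of freedom, prior 4.98). Tests are two-sided with Benjamini-Hochberg adjustment over all genes. The fit was also run on simulated arrays with independent noise, where the pass condition was a mean estimate near the change put in. That run does not show that error rates hold for these arrays, where the arrays of a group are different times. P-values reflect no more than the spread among these arrays, which may be technical. The members and lists were chosen with earlier results of these data known, and the less strict kappaB form after the strict one had found no match in the members. Promoter windows are RefSeq's (GRCh38.p14). Python 3.11.15 was used for summaries.

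Named genes are the 3 members, every called gene of the cell death lists, the 2 genes of each list with the largest absolute mean with inhibitor, 3 nearest genes per member, CHUK and relatives by sequence. MCL1, CASP10, FADD, BAD, PMAIP1, BMF, HRK, TRAF1, SOD2, LCK, and the B cell and myeloid markers were added after their values were seen. Alternatives were median centring, scaling to equal spread, a looser filter on missing values, single probes or their median, the doxycycline day as a block, a robust prior and each array left out. TNFAIP3 and PIM2 were followed through these settings after their calls had been seen.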

Additional observations from a re-analysis of the deposited data

Results flagged for a closer look

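BCL2A1 was flagged because both arrays with inhibitor were below 0 and both arrays without it above 0, a difference of -0.37 between the means. That criterion involves no test, and 1.53% of all genes met it. BCL2A1 was chosen with these values known. Its mean at 3 h of inhibitor was -0.03, where 47.8% of genes lay below it. In the limma fit over all genes the difference was not called (adjusted p = 0.989, and 0.344 to 1 over the alternatives). The same holds for 3 of its 5 probes, with differences of -0.57 (probe 1), -0.48 (probe 2) and -0.47 (probe 5). How many of all probes met the criterion was not counted, and the 1.53% is of gene means, so nothing is read from the 3. In the limma fit on single probes none of 9788 probes was called for the difference. The value nearest to 0 was -0.01, of probe 5 at 3 h of inhibitor.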

How the results depend on the processing

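For the 3 genes 1 of 90 alternative values changed sign, but many of the 90 could not change. The looser filter, the day as a block and the robust prior left every value of these genes as it was. So did leaving out an array of the other group for a group mean, and the median of 2 probes for CFLAR and BIK. CFLAR without inhibitor ranged from -0.262 to 0.061 when 1 array was left out. It was 0.061 without the 3-day array of that group, which leaves the 2-day value. The differences with inhibitor minus without ranged from -0.66 to -0.34 for CFLAR, from -0.49 to -0.24 for BCL2A1 and from 0.21 to 0.43 for BIK, none called. The limma adjusted p with inhibitor ranged from 0.00444 to 0.0825 for BIK and from 0.0017 to 0.206 for CFLAR, for which the median of probes gave 0.0483.

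Counts over all genes moved more. Without inhibitor the count of 0 became 141 after scaling to equal spread, 24 on single probes and 56 with the day of doxycycline as a block, and ranged from 0 to 231 when 1 array was left out. With inhibitor 164 became 979 on single probes and 908 with the day as a block, and ranged from 34 to 858 when 1 array was left out. For the difference 0 became 4 when a probe needed a value on only 1 array of each group, and ranged from 0 to 119 when 1 array was left out. The causes were not tested, except that leaving out an array leaves 1 residual degree of freedom, with the lone array of a group assumed to vary like the other group. Single probes test 9788 features. Signal over background, which would show how well each probe was measured, is unknown.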

Other observations

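Markers of B cells and myeloid cells gave no call in any comparison. B cell markers, 7 measured, had a median of -0.06 with inhibitor and 0.00 without it, and 3 of the 7 means with inhibitor were above 0. MS4A1, the gene of CD20, had -0.12 with and 0.02 without inhibitor, while EBF1 had 0.20 and 0.09, CD79A 0.20 and -0.16 and PAX5 0.09 and 0.07. Myeloid markers, 4 measured, had medians of 0.00 and 0.02. They did not share a direction: ITGAM averaged -0.31 with and -0.22 without inhibitor, CD14 -0.03 and 0.05 and CD68 0.02 and 0.00. In CSF1R, a myeloid receptor, the ratio was 0.30 at 3 h and 0.93 at 24 h of inhibitor, and -0.12 at 2 days and 0.19 at 3 days without inhibitor, on 1 probe.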
